A study of Homo sapiens with 12 samples.

Results

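The short RNAs that RNA polymerase III makes from U6, 7SL, 7SK, Y RNA and 5S ribosomal RNA genes have left many pseudogene copies in the human genome, and these copies are described here in HEK293 cells with active or inactive DIS3L2. HEK293 is an established human embryonic kidney line. Its Flp-In T-REx derivatives produced, from a doxycycline-inducible cassette, a recoded, C-terminally FLAG-tagged DIS3L2 that was either wild type (WT) or a catalytic mutant (mut). Cells of both groups also carried, on the same cassette, hairpins in microRNA backbones against the endogenous DIS3L2 transcript, and both were induced with 100 ng/ml doxycycline for 3 days. Each variant had 3 rRNA-depleted, strand-specific total RNA libraries and 3 small RNA libraries made from tobacco acid pyrophosphatase-treated RNA and selected for size on gels. The labels do not say whether the libraries came from separate cultures, or whether a variant was 1 clone, so the p-values rest on differences between libraries that may be only technical repeats.

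The copies were chosen by symbol alone: RNU6-numberP (U6), RN7SLnumberP (7SL), RN7SKPnumber (7SK), RNYnumberPnumber or Y_RNA (Y), and RNA5SPnumber (5S). They numbered 3549 of the 60483 genes in the deposited tables. The U6 family had 1271 copies, the Y family 807 (754 of them named only Y_RNA), the 7SL family 677, the 5S family 501 and the 7SK family 293. The copies are short, with a median annotated length of 106 nt for U6, 115 nt for 5S, 280 nt for 7SK and 293 nt for 7SL. It was 99 nt for the 53 Y copies with a known position. None of their sequences was read here.

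As background, U6 is the small nuclear RNA at the catalytic centre of the spliceosome, 7SL is the scaffold of the signal recognition particle that targets secretory proteins to the endoplasmic reticulum, and 7SK holds the elongation factor P-TEFb inactive through HEXIM proteins. Y RNAs bind the Ro60 protein, and 5S rRNA is part of the large ribosomal subunit. Most pseudogenes of these RNAs are copies of the transcript that were reverse transcribed and inserted elsewhere in the genome. U6 and 7SK genes are driven by promoters upstream of the transcribed part, which such a copy leaves behind, whereas the 5S promoter lies inside the gene. Many copies lie in introns, where they are also part of the primary transcript of the surrounding gene. DIS3L2 is a cytoplasmic exoribonuclease that degrades RNA from the 3′ end and prefers transcripts with added uridines.

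Gene counts ranged from 8315986 to 12675042 per total RNA library, and small RNA libraries held 493314 to 1219718 fragments. DIS3L2 itself had 10242, 8858 and 9496 counts in mut, against 7382, 10386 and 6322 in WT (edgeR log2 fold change 0.48, SE 0.05, adjusted p = 9.6e-08). This count may sum the transgene and residual endogenous transcripts, so it does not tell the variants apart. Of 5 markers of HEK293 cells, NEFL, INA and VIM were present and called higher in mut, PAX2 was tested and not called and NEFM had 12 counts. Of 7 markers of other cell types, EPCAM, COL1A1 and COL3A1 were called higher in mut, while PTPRC, CD3E, HBA1 and ALB had 0 to 6 counts over the 6 libraries. The 7 together lay at 57.8 to 62.6 CPM in mut and 37.97 to 41.9 CPM in WT. Most of this was EPCAM alone, at 56.3 ± 1.98 CPM in mut and 38.3 ± 2.37 in WT. The part of these markers in the results was not tested. CPM are counts per 1000000 counts in genes, with library sizes scaled by edgeR's trimmed mean of M values (TMM).

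Reads were found in 905 of the 3549 copies (25.5%), and 2644 copies had no read in any total RNA library. A count of 0 over the 6 libraries allows up to 0.0527 CPM, for counting error only. All copies together held 12983 counts, which is 0.0228% of all counts in genes. The share of copies with at least 1 count was 32.6% for 7SL (221 of 677), 29.7% for Y (240 of 807), 28.0% for 7SK (82 of 293), 23.7% for U6 (301 of 1271) and 12.2% for 5S (61 of 501). Reads with several alignments were not assigned to any gene and made up 39.9% ± 2.37 of all deposited reads in mut and 34.5% ± 4.56 in WT (30.5% to 42.0% per library), so near-identical copies lose reads and the level of a single copy is uncertain.

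A few copies carried most of the counts in 3 of the 5 families. The 48 copies with 30 or more counts over the 6 libraries (10 U6, 23 7SL, 6 7SK, 8 Y and 1 5S) held 63.8% of all counts in the families. RN7SKP203 alone held 48.5% of the 7SK counts, RN7SL5P 30.5% of the 7SL counts and RNA5SP304 70.3% of the 5S counts. The U6 and Y families were spread more evenly: RNU6-5P held 16.6% of the U6 counts, and the leading Y_RNA copy 2.75% of the Y counts. Just below the limit, 15 copies had 25 to 29 counts (0 to 11 per library), and just above it 7 copies had 30 to 34 (1 to 11 per library).

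Summed over all copies, the families did not move together. U6 copies summed to 341, 381 and 364 counts in mut, against 374, 515 and 323 in WT, or 41.4 ± 3.34 against 39.4 ± 0.800 CPM (SD, n = 3), with overlapping groups. 7SL copies summed to 809, 853 and 786 counts in mut, against 793, 1104 and 740 in WT, or 93.3 ± 5.65 against 86.2 ± 4.45 CPM, also overlapping. The difference of the means was within the SD of the mut libraries for U6, and above the SD of either group for 7SL.

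The 7SK and 5S sums lay higher in every mut library than in any WT library, and the Y sum lower. 7SK copies summed to 548, 606 and 556 counts in mut, against 535, 703 and 459 in WT, or 65.2 ± 5.14 against 55.4 ± 0.743 CPM, a ratio of 1.18. 5S copies summed to 81, 96 and 102 counts in mut, against 81, 93 and 66 in WT, or 10.6 ± 1.44 against 7.90 ± 0.575 CPM, a ratio of 1.35. Y copies summed to 219, 224 and 210 counts in mut, against 320, 412 and 289 in WT, or 24.9 ± 1.16 against 33.5 ± 1.70 CPM, a ratio of 0.742. Among the Y copies, the 754 named Y_RNA stood at 0.738 of their WT level with separate groups, and the 53 with RNYnumberPnumber names at 0.801 with overlapping groups. In these bulk samples fewer cells with a transcript and less of it per cell cannot be told apart. The sums were given no test, because the families were chosen with earlier results of these data known.

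Splitting at 30 counts separated opposite differences of the summed counts within the U6, 7SL, 7SK and 5S families, while both classes of Y copies were lower in mut on average. The copies with 30 or more counts lay above WT in every mut library for U6 (19.2 ± 4.54 against 11.8 ± 1.91 CPM, a ratio of 1.63), 7SL (72.4 ± 3.85 against 59.5 ± 1.93 CPM, 1.22) and 7SK (59.0 ± 4.34 against 47.7 ± 1.02 CPM, 1.24). The single 5S copy in this class, RNA5SP304, had a ratio of 1.90, and the 8 Y copies overlapped between the groups at 0.849. These class sums lean on a few copies. RNU6-5P and RNU6-33P held 382 and 157 of the 873 U6 counts in the class. RN7SL5P held 1551 of the 3730 7SL counts, and RN7SKP203 1654 of the 3011 7SK counts. Taken singly, 7 of 10 U6, 12 of 23 7SL and all 6 7SK copies had positive log2 fold changes (medians 0.26, 0.02 and 0.31). The copies under 30 counts lay below WT in every mut library for U6 (22.2 ± 1.204 against 27.6 ± 1.96 CPM, a ratio of 0.802), 7SL (20.9 ± 2.03 against 26.7 ± 3.72 CPM, 0.782), 7SK (6.14 ± 1.01 against 7.67 ± 0.504 CPM, 0.800) and Y (20.0 ± 0.989 against 27.7 ± 1.81 CPM, 0.720). The 5S copies under 30 counts were at 0.606 of WT with overlapping groups.

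All 3501 copies under 30 counts together had 639, 626 and 605 counts in mut, against 876, 1121 and 829 in WT, or 71.2 ± 1.95 against 93.1 ± 7.48 CPM, a ratio of 0.765. Reads that the authors' counting placed in no gene differed by nearly the same ratio: relative to the scaled gene counts they stood at 0.764 of their WT level, and they made up 12.9% ± 0.701 of all deposited reads in mut and 17.9% ± 1.42 in WT. Reads overlapping several genes, by contrast, made up 9.24% ± 0.631 in mut and 7.68% ± 0.706 in WT. The part of these reads in the family sums was not tested.

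**Figure D1:**
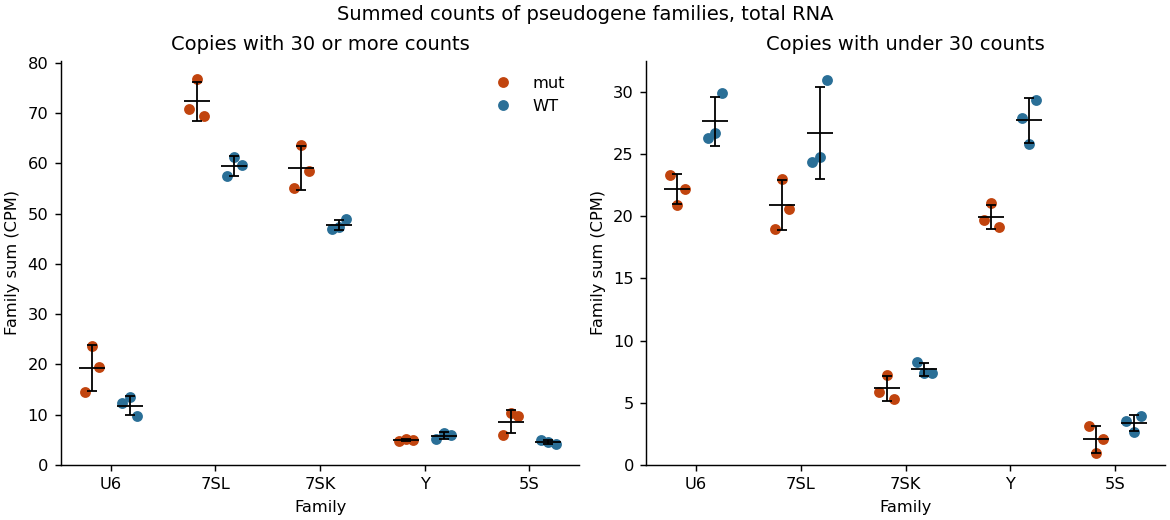
Summed CPM of each pseudogene family in each total RNA library, for the copies with 30 or more counts over the 6 libraries (left panel) and those under 30 counts (right panel). Points are libraries (3 mut, 3 WT), bars the mean ± SD. The mut libraries lie above WT on the left for U6, 7SL, 7SK and 5S, and below WT on the right for U6, 7SL, 7SK and Y.

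The 48 copies with 30 or more counts were tested singly within a fit over all 16397 genes that passed the same limit (edgeR quasi-likelihood F test, two-sided, Benjamini-Hochberg adjusted p under 0.05). The fit called 8 copies higher and 1 lower in mut, or 18.75% of the 48, where 24.1% of all genes tested were called (11.5% higher and 12.6% lower). The median log2 fold change was 0.07 over the copies and -0.01 over all genes tested. All 8 calls to the higher side fell among the 16 copies with 100 or more counts, a class in which 27.8% of all genes tested were called (13.1% higher and 14.7% lower). Among the 32 copies with 30 to 99 counts none was called higher and RN7SL751P was called lower, where 9.13% of genes in that class were called (5.02% higher and 4.11% lower). Every mut library lay above every WT library for 6 copies and below for 7, against 18.2% and 19.7% of all genes tested. A fit with the trend of fold change on gene length removed called 5 copies higher and 3 lower. The tested Y_RNA copies had no annotated length and were not corrected in it. All other tested copies had lower values in that fit than in the main fit, for example 1.21 against 1.45 for RNU6-33P.

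**Figure D2:**
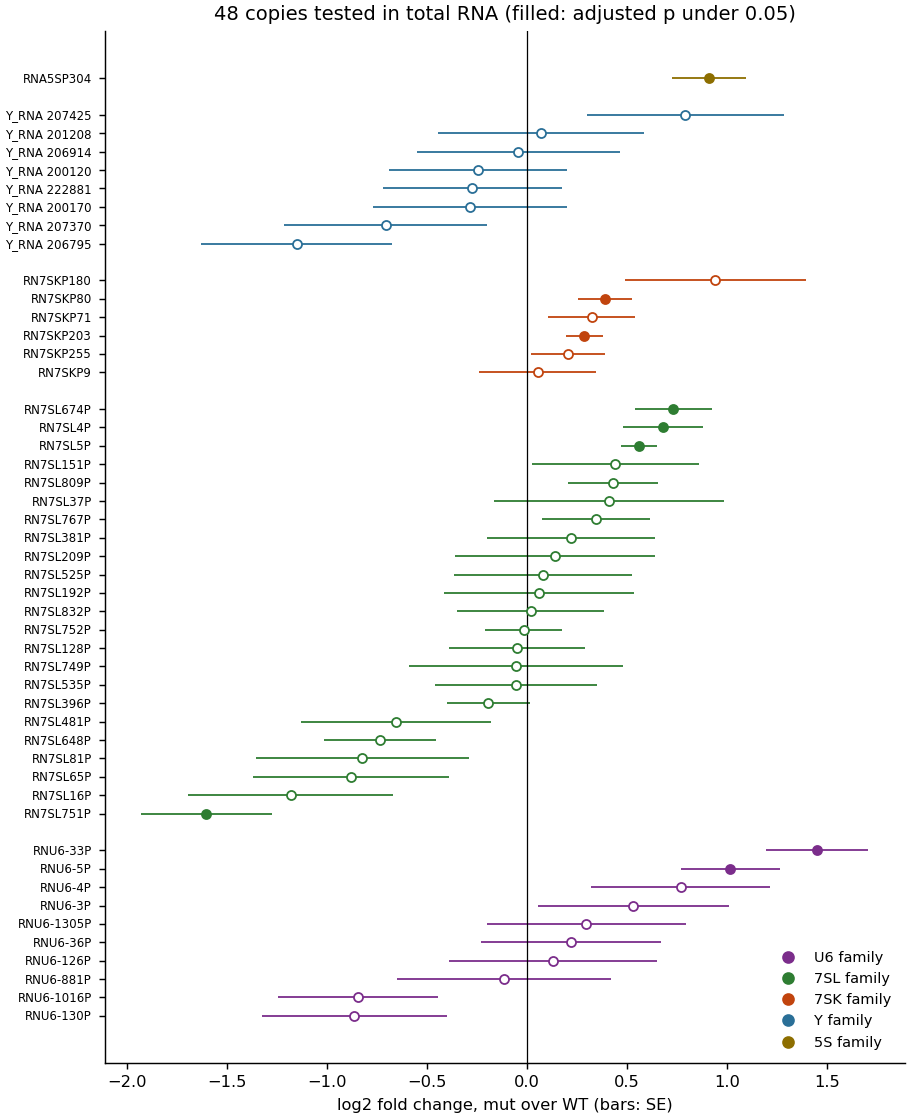
Log2 fold change (mut over WT, horizontal axis) of each of the 48 tested copies, grouped by family, with its standard error. Filled points passed adjusted p under 0.05: 8 lie to the right of 0, and RN7SL751P lies to the left. Y_RNA copies carry the last 6 digits of their Ensembl identifier.

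U6 pseudogenes. RNU6-33P and RNU6-5P rose, and the other 8 tested copies were not called. RNU6-33P (ENSG00000207524.1, chr4:88684848-88684954, minus strand, hg38) had 35, 42 and 33 counts in mut, against 11, 26 and 10 in WT. Its mut libraries, at 3.78 to 4.91 CPM, lay above all WT libraries, at 1.13 to 2.03 CPM, and its log2 fold change was 1.45 (SE 0.26, adjusted p = 0.000105). It lies inside the span of HERC3, a ubiquitin ligase gene, on the opposite strand, and HERC3 stood at 11.3 ± 2.42 CPM in mut, against 13.2 ± 1.37 in WT (log2 fold change -0.24, adjusted p = 0.21).

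RNU6-5P (ENSG00000206965.1, chr2:174557967-174558072, minus strand) had 56, 102 and 83 counts in mut, against 40, 87 and 14 in WT. Its groups overlapped, because WT library 2 reached 6.78 CPM and mut library 1 stood at 6.23 CPM, while WT library 3 was at 1.72 CPM. The log2 fold change was 1.02 (SE 0.25, adjusted p = 0.003), a call that DESeq2 did not make (1.13, adjusted p = 0.17). The value was 1.60 without WT library 2, 0.73 without WT library 3 and 0.79 without mut library 2. It lies outside any gene, 1502 nt from WIPF1 on the same strand. WIPF1, which encodes a partner of the actin regulator WASP, stood at 4.27 ± 0.456 CPM in mut, against 4.73 ± 0.0511 in WT.

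Next in counts came RNU6-1016P, RNU6-36P and RNU6-130P, none of which passed the test. RNU6-1016P (ENSG00000252498.1, chr6:75644084-75644177, plus strand) had 6, 7 and 6 counts in mut, against 9, 15 and 16 in WT (-0.84, SE 0.40, adjusted p = 0.13). RNU6-130P (ENSG00000223044.1, chr6:82210338-82210440, minus strand) had 5, 5 and 5 counts in mut, against 8, 9 and 15 in WT (-0.86, SE 0.46, adjusted p = 0.18). The groups did not overlap for either copy, and both lie on the sense strand of a gene that fell. Without WT library 3, the highest in both copies by CPM, the values were -0.53 for RNU6-1016P and -0.38 for RNU6-130P. RNU6-1016P is inside SENP6, a SUMO protease gene (-0.36, SE 0.07, adjusted p = 0.00033), and RNU6-130P inside IBTK (-0.41, SE 0.06, adjusted p = 2.7e-05). With the length trend removed RNU6-1016P passed the test (-1.09, adjusted p = 0.047).

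RNU6-36P (ENSG00000206899.1, chr12:97721716-97721821, plus strand, inside the pseudogene PAFAH1B2P2) had 6, 7 and 12 counts in mut, against 14, 7 and 4 in WT, with overlapping groups (0.22, SE 0.45, adjusted p = 0.77). The remaining 5 tested U6 copies, RNU6-3P, RNU6-4P, RNU6-126P, RNU6-881P and RNU6-1305P, had log2 fold changes between -0.11 and 0.77, adjusted p from 0.23 to 0.91 and overlapping groups. RNU6-1305P, singled out after its values were seen, lies on the sense strand inside SKP2, the gene of an F-box protein of the cell cycle, which rose by 0.40 (adjusted p = 5.1e-06). Its own value was 0.30 (SE 0.50, adjusted p = 0.71).

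7SL pseudogenes. RN7SL5P, RN7SL4P and RN7SL674P rose, RN7SL751P fell and 19 of 23 tested copies were not called. RN7SL5P (ENSG00000265735.2, chr9:9441998-9442310, within the span of PTPRD) had 292, 299 and 273 counts in mut, against 198, 303 and 186 in WT. That is 32.9 ± 1.89 CPM in mut and 22.3 ± 1.66 in WT with separate groups, and a log2 fold change of 0.56 (SE 0.09, adjusted p = 3.7e-05). PTPRD, a receptor tyrosine phosphatase gene, stood at 29.96 ± 0.792 CPM in mut, against 34.4 ± 1.68 in WT (-0.20, adjusted p = 0.086). Without RN7SL5P the 7SL sum turned from 0.11 to -0.08 on the log2 scale.

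RN7SL674P (ENSG00000239899.3, chr2:11584773-11584972, within GREB1, an oestrogen-responsive gene) had 41, 43 and 50 counts in mut, against 31, 37 and 26 in WT. Its mut libraries lay at 4.56 to 5.73 CPM and its WT libraries at 2.89 to 3.20 CPM (0.73, SE 0.19, adjusted p = 0.0061). RN7SL4P (ENSG00000263740.2, chr3:15738515-15738786, within ANKRD28) had 72, 69 and 47 counts in mut, against 33, 76 and 29 in WT. WT library 2, at 5.93 CPM, lay above mut library 3, at 5.39 CPM, so the groups overlapped (0.68, SE 0.20, adjusted p = 0.013). The RN7SL4P value grew to 1.04 without WT library 2 and its call was lost without mut library 1 (adjusted p = 0.051), without WT library 1 (0.082), without WT library 3 (0.055) and with the length trend removed (0.50, adjusted p = 0.069). Neither surrounding gene was called: GREB1 had a log2 fold change of 0.26 (adjusted p = 0.41) and ANKRD28, a subunit gene of protein phosphatase 6, -0.04 (adjusted p = 0.71).

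RN7SL751P (ENSG00000240964.3, chr3:78938009-78938292) had 6, 8 and 7 counts in mut, against 23, 27 and 25 in WT, the most negative value of the 48. Its mut libraries lay at 0.67 to 0.94 CPM and its WT libraries at 2.11 to 3.06 CPM (-1.60, SE 0.33, adjusted p = 0.00054). It lies within the span of ROBO1, the gene of an axon guidance receptor for Slit proteins, which fell by 0.36 on the log2 scale (SE 0.06, adjusted p = 0.00012). Whether the copy and ROBO1 lie on the same strand was not known here. RN7SL648P (ENSG00000265727.2, chrX:74242608-74242908), named after its values were seen, lies in the long noncoding RNA gene FTX and had 10, 16 and 14 counts in mut, against 28, 31 and 19 in WT. Its value of -0.73 (SE 0.28, adjusted p = 0.054) did not pass the test, except with the length trend removed (-0.91, adjusted p = 0.015) or without mut library 2 (-0.90, adjusted p = 0.043), and FTX fell by 0.61 (adjusted p = 2.6e-05).

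RN7SL752P and RN7SL396P completed the 5 most abundant 7SL copies and overlapped between the groups. RN7SL752P (ENSG00000239437.3, chr3:129591349-129591578, within the semaphorin receptor gene PLXND1) had 36, 35 and 36 counts in mut, against 43, 45 and 38 in WT (-0.02, SE 0.19, adjusted p = 0.96). RN7SL396P (ENSG00000244642.3) had 35, 32 and 27 counts in mut, against 41, 43 and 41 in WT (-0.19, SE 0.21, adjusted p = 0.54). Over the 23 tested 7SL copies 12 values were positive and 11 negative, and the median was 0.02.

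7SK pseudogenes. RN7SKP203 and RN7SKP80 passed the test with small rises, and all 6 tested copies had positive values (median 0.31). RN7SKP203 (ENSG00000200488.1, chr2:76445170-76445410) is intergenic, 124456 nt from the nearest annotated gene, and had 251, 303 and 291 counts in mut, against 273, 329 and 207 in WT. WT library 1, at 28.2 CPM, lay above mut library 1, at 27.9 CPM, and the log2 fold change was 0.29 (SE 0.09, adjusted p = 0.025). The 4 tested protein-coding genes within 1 Mb of it had a median log2 fold change of -0.11. RN7SKP80 (ENSG00000202058.1, chr22:42565062-42565329, within SERHL2) had 129, 151 and 112 counts in mut, against 92, 148 and 109 in WT, also overlapping (0.39, SE 0.13, adjusted p = 0.032). SERHL2, a serine hydrolase-like gene, stood at only 0.684 ± 0.297 CPM in mut and 0.772 ± 0.0748 in WT, well below the copy inside it. Which part of the SERHL2 span was counted was not known here.

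Neither 7SK call was made by DESeq2 (adjusted p = 0.071 for RN7SKP203 and 0.10 for RN7SKP80) or with the length trend removed, where the values were 0.10 and 0.21. The RN7SKP203 call was also lost when mut library 2 or 3 or WT library 2 or 3 was left out (adjusted p from 0.067 to 0.14), and that of RN7SKP80 when mut library 2 or WT library 1 or 2 was left out (0.052 to 0.21). RN7SKP255 (ENSG00000200312.1, chr14:89712511-89712750, intergenic) had 43, 43 and 41 counts in mut, against 36, 62 and 31 in WT (0.21, SE 0.18, adjusted p = 0.45). RN7SKP71 (ENSG00000201428.1, chr12:112267077-112267315, within HECTD4) had 41, 26 and 36 counts in mut, against 37, 37 and 22 in WT (0.32, SE 0.22, adjusted p = 0.30). RN7SKP9 (ENSG00000201793.1, chr13:99205708-99206006, within UBAC2) had 22, 15 and 20 counts in mut, against 12, 27 and 25 in WT (0.05, SE 0.29, adjusted p = 0.92). The groups overlapped for these 3 copies.

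Y pseudogenes. None of the 8 tested copies was called by edgeR, 1 of them had an unadjusted p under 0.05, and DESeq2 gave none of the 8 an adjusted p. All 8 are named Y_RNA and are given by identifier, without a position. ENSG00000206795.1 had 5, 3 and 3 counts in mut, against 7, 12 and 10 in WT, with separate groups (-1.15, SE 0.48, adjusted p = 0.078). The most abundant copy, ENSG00000222881.1, had 4, 6 and 9 counts in mut, against 5, 15 and 7 in WT (-0.27, SE 0.45, adjusted p = 0.71). ENSG00000200120.1 had 9, 4 and 5 counts against 9, 11 and 5 (-0.24), and ENSG00000207370.1 had 4, 9 and 1 against 7, 13 and 7 (-0.71).

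ENSG00000201208.1, the fifth Y copy by counts, had 3, 5 and 9 counts in mut, against 6, 11 and 2 in WT (0.07). At these depths the standard errors of the 8 copies ran from 0.44 to 0.51, so a difference as large as that of the family sum (-0.43) was not detectable in a single copy.

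5S pseudogenes. RNA5SP304, the only tested copy, rose. RNA5SP304 (ENSG00000223131.1, chr10:22997255-22997358, plus strand) had 53, 88 and 84 counts in mut, against 47, 59 and 34 in WT. Its mut libraries, at 5.89 to 10.3 CPM, lay above its WT libraries, at 4.17 to 4.85 CPM (0.91, SE 0.18, adjusted p = 0.0005). It lies on the sense strand within ARMC3, the gene of an armadillo repeat protein, and ARMC3 moved the other way: it had 15, 19 and 20 counts in mut, against 37, 37 and 32 in WT (-0.75, SE 0.24, adjusted p = 0.024). The copy had 365 counts over the 6 libraries and the whole of ARMC3 160. The other 500 5S copies had 28, 8 and 18 counts in mut, against 34, 34 and 32 in WT.

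**Figure D3:**
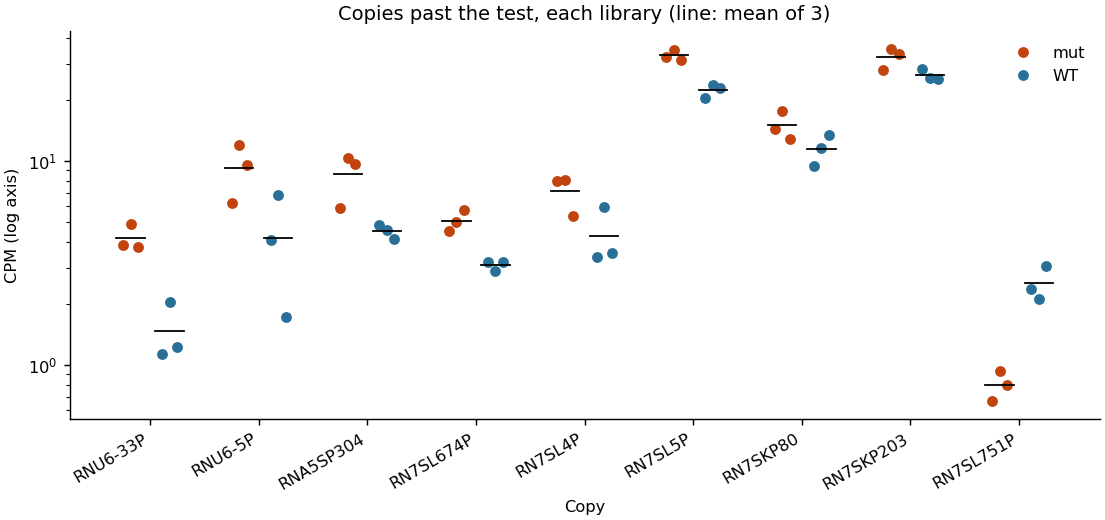
CPM (log axis) of the 9 copies past the test in each total RNA library, ordered by fold change, with points for the 3 mut and 3 WT libraries and a line at the mean. The groups are separate for RNU6-33P, RNA5SP304, RN7SL674P, RN7SL5P and RN7SL751P and overlap for RNU6-5P, RN7SL4P, RN7SKP80 and RN7SKP203.

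Position set apart the copies that were counted from those that were not. Positions came from RefSeq for 2795 copies, all but those named Y_RNA, and 1706 of these lie inside the span of another gene, 303 within 5 kb of one and 786 farther away. Whether a copy lies in an intron or an exon was not determined. Reads were found in 33.4% of the copies inside a gene (569 of 1706), 15.8% of those within 5 kb (48 of 303) and 8.78% of the intergenic copies (69 of 786). The order was the same in the U6, 7SL and 7SK families: 33.5%, 14.6% and 6.63% for U6, 43.0%, 22.0% and 12.6% for 7SL, and 40.1%, 23.5% and 10.1% for 7SK. In the 5S family the shares were 15.3% inside genes, 5.77% within 5 kb and 7.41% in intergenic sequence.

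Strand was known for 1805 copies, mainly U6 and 5S. U6 copies on the sense strand of the surrounding gene were detected in 57.0% of cases (162 of 284), and those on the opposite strand in 12.7% (38 of 299). The difference held at both levels of the surrounding gene: with 1000 or more counts in that gene the shares were 84.4% (130 of 154) and 16.6% (27 of 163), and under 1000 counts 25.5% (28 of 110) and 7.02% (8 of 114). In the 5S family 25.2% (27 of 107) of sense copies and 6.84% (8 of 117) of opposite-strand copies were detected, and of the RNYnumberPnumber copies 11 of 14 and 2 of 15. Across the 264 sense U6 copies with a counted surrounding gene, copy and gene counts had a Spearman correlation of 0.64, and across 277 opposite-strand copies of 0.22. These describe copies that share libraries and in a few cases a gene, and carry no p.

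**Figure D4:**
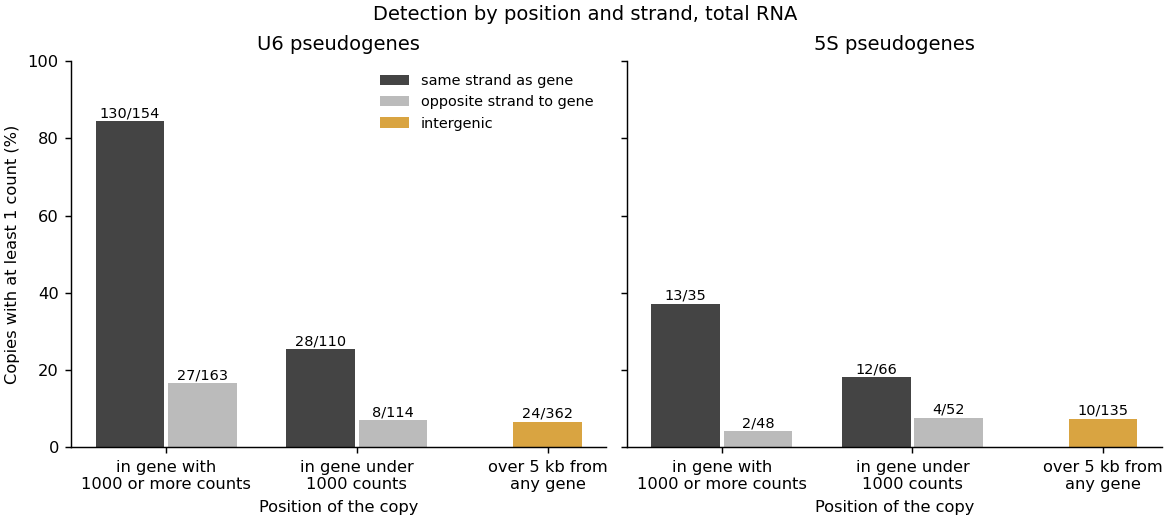
Share of U6 copies (left) and 5S copies (right) with at least 1 count over the 6 total RNA libraries, by the counts of the surrounding gene and the strand of the copy, with intergenic copies for comparison. Numbers above the bars are copies detected of copies in the class, and the tallest bar is that of U6 copies on the sense strand of genes with 1000 or more counts (130 of 154).

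Sense copies inside genes also made up most of the U6 signal under 30 counts. They held 71.8% of it, with 147, 128 and 131 counts in mut, against 189, 249 and 179 in WT, or 15.4 ± 0.778 against 20.3 ± 1.43 CPM (a ratio of 0.762, mut below WT in every library). Opposite-strand copies inside genes held 4.21% of it (ratio 0.808, overlapping) and intergenic copies 4.42% (1.03, overlapping). The 143 copies within 5 kb of a gene held 5.26% of it and lay higher in mut, with 14, 12 and 16 counts against 12, 14 and 7 (1.60 ± 0.218 against 1.06 ± 0.192 CPM). Sorted by the call of the surrounding gene, the sums of all sense U6 copies stood at 0.656 of WT in 45 copies whose gene was called lower (65, 51 and 40 counts against 78, 98 and 93) and at 0.772 in 142 copies whose gene was tested and not called. In 12 copies whose gene was called higher the ratio was 1.16 with overlapping groups (10, 12 and 11 counts against 14, 9 and 9). Over the sense copies of all families, RNA5SP304 included, this order was not seen: the ratio was 1.03 with overlapping groups where the gene was called lower (63 copies), 0.727 where it was not called (188 copies) and 1.12, overlapping, where it was called higher (21 copies). RNA5SP304 alone held 365 of the 847 counts where the gene was called lower. It made up 8.61 of 15.3 CPM in mut and 4.54 of 14.8 CPM in WT. The 1.03 thus leans on a single copy, and the other copies of that class summed lower in mut than in WT on average. The ratio without RNA5SP304 was not calculated.

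Of the 48 tested copies 33 lie inside a gene span, 4 within 5 kb of a gene, 3 are intergenic and 8 have no position. The surrounding gene was itself tested for 29 of them, and 15 of the 29 had the same sign of log2 fold change as that gene (Pearson correlation across the copies 0.16, a description only). Of 6 such copies known to lie on the sense strand 3 had the sign of their gene (RNU6-1016P in SENP6, RNU6-130P in IBTK and RNU6-1305P in SKP2). The other 3 had the opposite sign: RNA5SP304 in ARMC3, RNU6-881P in NUP214 (-0.11 against 0.08) and RNU6-126P in ALG8 (0.13 against -0.02). RNU6-33P, the 1 tested copy known to lie on the opposite strand, had the opposite sign of HERC3.

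**Figure D5:**
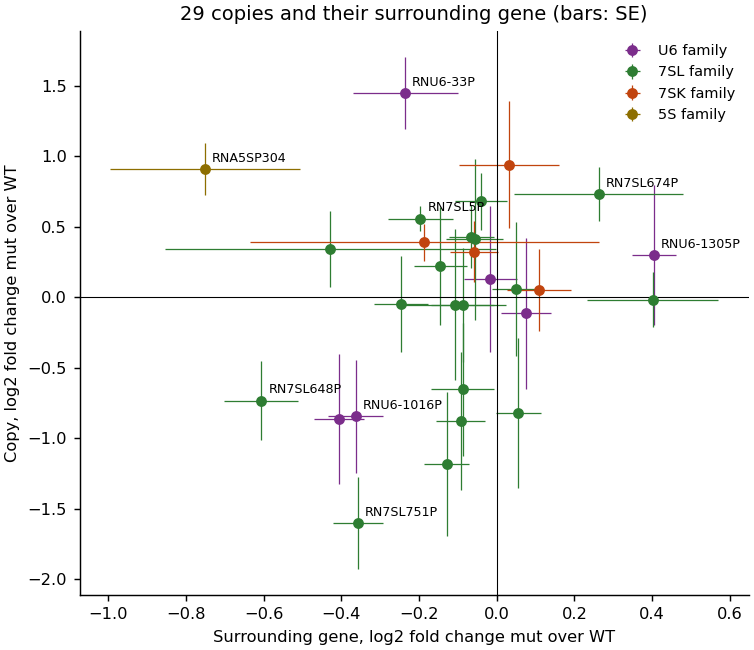
Log2 fold change of 29 tested copies (vertical axis) against that of the gene whose span surrounds them (horizontal axis), with standard errors and colours by family. RNA5SP304 and RNU6-33P lie in the upper left, where the copy is higher and the gene lower in mut, and RN7SL751P, RN7SL648P and RNU6-1016P in the lower left.

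The small RNA libraries held few reads of these copies. Of 1805 copies matched by position to an annotated small RNA feature (1225 U6, 479 5S, 48 Y, 29 7SK and 24 7SL), 39 had at least 1 fragment and 4 had 30 or more. A count of 0 over the 6 libraries allows up to 0.742 FPM (fragments scaled to the library total in the way that CPM scale counts). None of the 4 was called by edgeR (0.154% of the 648 features tested were called), none had an unadjusted p under 0.05, and DESeq2 and limma called none. All matched 7SL and 7SK copies were at 0, but only 24 of 677 7SL and 29 of 293 7SK copies were matched. None of the 7SL and 7SK copies tested in total RNA was among them, so their level in small RNA was not known here.

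RNA5SP202 (chr6:4427963-4428081, plus strand) had 24, 43 and 32 fragments in mut, against 9, 20 and 16 in WT, with overlapping groups (log2 fold change 0.65, SE 0.34, adjusted p = 0.71). It had no count in any total RNA library. RNA5SP304, the copy that rose in total RNA, had 5, 14 and 5 fragments in mut, against 2, 2 and 4 in WT. Scaled to the library totals all 3 mut libraries (7.83 to 12.2 FPM) lay above all 3 WT libraries (3.95 to 6.34), and the edgeR log2 fold change was 1.02 (SE 0.46, adjusted p = 0.71).

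RNU6-4P had 6, 22 and 11 fragments in mut, against 7, 5 and 21 in WT (-0.27, SE 0.47, adjusted p = 0.90), and RNU6-42P had 6, 14 and 11 against 5, 6 and 11 (0.00, SE 0.43, adjusted p = 0.9999). RNU6-5P had too few fragments to be tested, with 2, 5 and 2 in mut and 1, 0 and 1 in WT. Summed over the 479 matched 5S copies there were 39, 63 and 39 fragments in mut, against 18, 25 and 24 in WT, or 61.8 ± 7.26 against 41.0 ± 7.47 FPM, with all mut libraries above WT. Only 19 of these copies had a fragment. RNA5SP202 and RNA5SP304, neither of them called, held 144 and 32 of the 208 fragments, so the sum does not describe the family at large. The U6 sum was 41.6 ± 10.1 against 38.02 ± 18.01 FPM and overlapped.

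The genes from which the copies derive moved mostly upward in total RNA, where 11.5% of all genes tested were called higher. Their values with the length trend removed are not given here. Of 5 U6 genes, RNU6-2 (1.58), RNU6-7 (1.45), RNU6-8 (0.81) and RNU6-9 (1.62) rose, and RNU6-1 was at 0.55 (adjusted p = 0.16). Together the 5 had 221, 245 and 266 counts in mut, against 152, 140 and 93 in WT, or 27.9 ± 3.03 against 12.7 ± 2.62 CPM, fewer assigned counts than the sum of their pseudogenes. Because reads with several alignments were not assigned, these counts do not rank the U6 genes against their pseudogenes, and a listed 0 does not show absence. RN7SL2 rose by 0.68 and RN7SL3 was at 0.04 (adjusted p = 0.71), while RN7SL1 was listed at 0. The 7SK gene (ENSG00000202198.1) rose by 0.34 and stood at 68592 ± 1616 CPM in mut and 54186 ± 1583 in WT. On the log2 scale the sum of the 6 abundant 7SK copies differed by 0.31. The sum of the whole 7SK family differed by 0.23, and that of its copies under 30 counts by -0.32.

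RNY1 and RNY4 rose by 0.79 and 1.12 (RNY1 with overlapping groups), whereas the sum of the Y copies was lower in every mut library. RNY3 had 20 counts and was not tested, and RNY5 was not analysed here. The 17 annotated 5S genes were all listed at 0, which does not show absence, because reads with several alignments were not assigned.

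Transcripts of genes for proteins that bind these RNAs, transcribe them, add tails to RNA or degrade it changed in both directions. Of 63 such genes 61 were tested, and 9 rose and 11 fell, or 32.8% called where 24.1% of all genes tested were. Among U6 partners LSM3, a subunit of the Lsm ring on the U6 3′ end, rose by 0.21 and LSM8, another subunit, fell by 0.23. MEPCE, which caps the 5′ end of U6 and 7SK, rose by 0.28. Of 6 signal recognition particle proteins SRP9 rose by 0.46 and SRP54, its GTPase, fell by 0.61. For 7SK, the P-TEFb kinase gene CDK9 rose by 0.32 and its cyclin gene CCNT2 fell by 0.28.

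SSB, which encodes the La protein that binds the 3′ end of new RNA polymerase III transcripts, fell by 0.34, and RO60 was at 0.04 (adjusted p = 0.75). GTF3A, the 5S transcription factor gene, rose by 0.24 and RPL11, a 5S-binding ribosomal protein gene, fell by 0.20. Of 8 genes of RNA tailing and decay TUT4 and TUT7, which add uridines to RNA 3′ ends, fell by 0.34 and 0.53, and TENT4B, a noncanonical poly(A) polymerase gene, fell by 0.27. Its relative TENT4A rose by 0.30 and DIS3L, a paralog of DIS3L2 that acts with the cytoplasmic exosome, by 0.29, while PARN, EXOSC10 and DIS3 were not called. Of 25 tested genes of RNA polymerase III and its factors 5 were called, 20% and thus near the 24.1% of all genes: BRF1 and GTF3C1 rose and POLR3G, SNAPC1 and SNAPC3 fell.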

How the data were processed

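The members and gene lists were chosen with earlier results of these data known. The 6 total RNA files hold raw read counts per Ensembl gene, as deposited. The submitters' processing notes list the aligner STAR 2.4.0, the counter HTSeq 0.6.1 and the build hg38, beside DESeq2 1.8.2. Which annotation release was counted, and with which strand option, is not given in the sources used here. Between 57.8% and 63.2% of the deposited reads per library stood in rows without a gene and entered neither the library sizes nor any test. The 6 small RNA files hold, as deposited by the authors, a fragment count per feature, the same scaled to library depth (a signal, FPM) and FPKM. Fragment counts were tested, the denominators of the FPM signal served as library totals, and the deposited FPKM were used only in a limma alternative on log2(FPKM + 1).

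Symbols were matched for 56321 of 60483 genes. Positions were taken by symbol from RefSeq (GRCh38.p14, the build of the files), and strand from small RNA features with both ends within 5 nt of the copy. Genes with 30 or more counts over the 6 libraries were tested with edgeR 4.0.16 in R 4.3.3 (quasi-likelihood F test, TMM, no covariate, Benjamini-Hochberg over all genes). Each standard error is the log2 fold change divided by the square root of F. The scripts were tested on simulated data. Replicates differed by more than sampling noise (chi-square per degree of freedom of 2.05 or more in total RNA and 14.6 or more in small RNA), so each library counted as 1 sample. Named copies are those past the test and the 5 with the most counts in each family, with their surrounding genes. The split of surrounding genes at 1000 counts was set after the data were seen. The alternatives were DESeq2 1.42.0, limma 3.58.1, other scalings and filters, a replicate block, removal of the length trend, other sets of summed copies and leaving out each library. Sequences and exon structure of the copies were not used here.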

Additional observations from a re-analysis of the deposited data

How the results depend on the processing

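No called copy changed direction under any alternative. Of 567 values of the 48 tested copies under alternatives, 548 stayed on their side of the threshold, 16 fell short of it and 3 passed it (RN7SL648P under 2 alternatives and RNU6-1016P under 1). Copies called higher numbered 5 with DESeq2, which left the adjusted p of 29 of the 48 undefined, and 5 with the length trend removed. Copies called lower numbered 5 without a count filter and 3 with the length trend removed. Leaving out each library gave 6 to 7 copies higher and 1 to 2 lower (2 without mut library 2). Over all genes DESeq2 called 1354 lower, and leaving out each library gave 1322 to 1844 higher and 1278 to 2121 lower (1278 without WT library 3).

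Most family sums (log2 mut over WT) depended on which copies were summed. The 7SK sum was 0.23, and 0.18 without its leading copy. Over intergenic copies it was 0.28, but RN7SKP203, the leading copy, held 1654 of those 1923 counts, so this is no separate check. The Y sum was -0.43 over all copies and -0.47 over copies under 30 counts. Copies with 30 or more counts held only 18.4% of the Y counts, so this is no separate check. The Y sum was -0.44 without its leading copy, which held only 2.75% of the Y counts and could hardly move it. Without the leading copy the U6 sum was -0.13, the 7SL sum -0.082 and the 5S sum -0.72. Restricted to copies under 30 counts, the sums were -0.32 for U6, -0.35 for 7SL, -0.32 for 7SK and -0.72 for 5S. Restricted to intergenic copies, they were 0.20 for U6, -0.30 for 7SL, 0.30 for Y (6 copies) and -0.67 for 5S. Relative to all deposited reads the Y sum was -0.51. The share of copies with the sign of their surrounding gene was 51.7%, and 41.4% to 58.6% when a library was left out. Sums over copies outside exons were not run. In small RNA no alternative called a copy, at depths where single copies had few fragments.

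The replicate numbers of the titles did not pair the libraries: deviations of same-numbered mut and WT libraries correlated at -0.45, -0.58 and 0.07. Across unlike numbers the correlations ran from -0.33 (mut 1 with WT 3) to 0.63 (mut 1 with WT 2). A block in another arrangement was not fitted, so independence of the mut and WT libraries is not shown. With the replicate number as a block, 8 copies were called higher and 1 lower, 1707 and 1872 of all genes, and no small RNA copy.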
